A study of Brachypodium distachyon with 12 samples.

Results

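Whole roots of wild-type Brachypodium distachyon at week 4 of growth were compared with whole roots at week 2, gene by gene. Brachypodium distachyon is a short-lived wild grass that stands in for wheat and barley in the laboratory, and the line grown was Bd21-3. Members were chosen by tissue and week alone: 6 of the 12 libraries of the series, 3 from week 2 roots and 3 from week 4 roots. The other 6 are from shoots of the same weeks and were used only where shoot values are named. Dopamine biosynthesis is the subject in the series title, and the labels set the groups apart by tissue and age alone. All plants stood in liquid medium (40 mL of 0.5 x MS, with 2 seedlings on a floating holder in each vessel), in days of 16 h light (150 µmol per square metre and second) and 8 h darkness, 22 °C and 50% relative humidity. The 3 biological replicates of a group came from different plants. The labels tie no plant of week 2 to a plant of week 4, and name no day or batch of harvest, so age and anything else that differed between the harvests cannot be told apart. Each library is bulk RNA of a whole root system, in which fewer cells of a type and less RNA per cell cannot be told apart.

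A root grows at its tips. Cells divide in the meristem behind the root cap, then elongate as their walls are loosened, and then mature into tissue that takes up water and ions, with lignin and suberin as barriers in the endodermis. Dividing cells make histones at the time of DNA replication and need many ribosomes. Maturing and ageing plant cells recycle protein through vacuolar cysteine proteases and autophagy, often under NAC transcription factors.

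The table gave raw read counts for 39068 genes, of which 7347 had no count in any root library. Root libraries held 17261299 to 23676944 counts, and 10 counts or more were reached by 23638 to 24588 genes per library. Levels are given below as CPM, the count relative to the TMM-scaled library size, which compares samples for 1 gene and is not a level per length. The summed level of a gene list covers all its genes in the table, tested or not. On a TMM scale set over all 12 libraries, used where shoot levels are given, genes described with a root cap domain, 11 in all, summed to 636 to 836 CPM in each root library and to 0.953 to 2.96 CPM in each shoot library. Casparian strip membrane proteins, 3 in all, which mark the endodermis, summed to 52.7 to 79.2 CPM in roots and 2.97 to 4.00 CPM in shoots. Week 2 replicate 1 stood apart from its group: across genes, which are not independent replicates, its log2 CPM correlated with the other week 2 roots at 0.959 and 0.964, against 0.983 between those. The weeks were not cleanly separate by this measure. Week 4 replicate 3 correlated with week 2 replicates 2 and 3 at 0.965 and 0.970, and with week 4 replicates 1 and 2 at 0.970 and 0.978. No pair of replicates was alike within sampling noise, the chi-square per degree of freedom being 6.96 to 35.1.

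Of 24405 genes tested, 2702 (11.1%) had higher and 2907 (11.9%) lower levels at week 4 by edgeR's quasi-likelihood test at an adjusted p under 0.05. The changes were mostly moderate. The median fold of a called gene was 1.72 among the higher and 1.65 among the lower, and 912 of the higher and 748 of the lower changed at least 2-fold. A fold of 4 or more was reached by 160 higher and 47 lower genes. The groups did not overlap in CPM for 2699 of the higher and 2905 of the lower genes, and called genes without overlap made up 23.0% of those tested. Nearly every called gene was thus without overlap, so for the single genes below it adds little to the call. The share of uncalled genes without overlap is not given here. Of the called genes, 516 higher and 373 lower ones had no description in the table. Names are those of the best-matching known protein or, failing that, of a protein domain, so they state similarity and not a tested activity.

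The split between the directions depended on which libraries were fitted. Higher genes were 48.2% of the calls in the root libraries alone, 66.1% (3282 higher, 1680 lower) in 1 model of all 12 libraries, and 59.1% (2886 higher, 1998 lower) in that model with scaling within each tissue. Leaving out week 2 replicate 2 left 1132 higher and 1461 lower calls, leaving out week 4 replicate 1 left 1182 and 1445, and leaving out week 4 replicate 2 left 988 and 1125. Most lists described below moved with them: of 67 counts of lower or higher genes by list, 48, 50 and 56 shrank by over 1.5 times in these 3 fits, against 14, 13 and 8 without week 2 replicate 1, week 2 replicate 3 and week 4 replicate 3. A stricter group of 1421 genes (5.82%), 782 higher (3.2%) and 639 lower (2.62%), kept its call and direction in all 14 alternative fits, among them DESeq2, limma-voom, other scalings, the models of all 12 libraries and each fit without 1 root library, and had no overlap. These genes are called stable below.

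**Figure D1:**
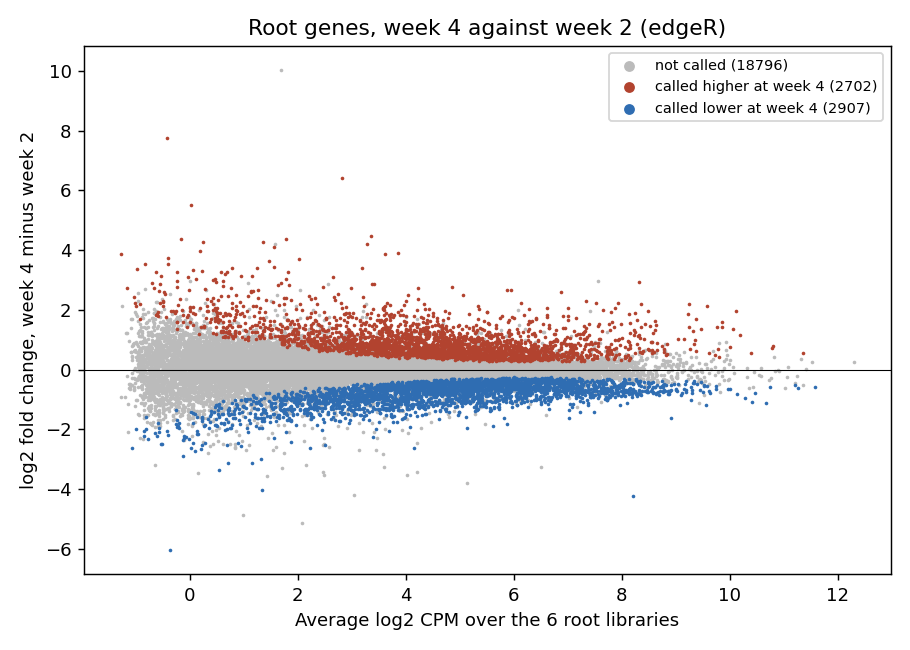
Log2 fold change of each of the 24405 tested genes, week 4 minus week 2, against its average log2 CPM over the 6 root libraries. Red points are the 2702 genes called higher and blue points the 2907 called lower by edgeR, grey points were not called, and most of the largest folds lie among genes of low average CPM.

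Genes of cell division had more lower than higher calls at week 4. Core histones, the proteins that package newly made DNA, had 33 of 48 tested members called lower (57 are in the table) and 0 higher by edgeR, with 2 at an unadjusted p under 0.05, 0 by DESeq2 and 0 by limma-voom. Their median log2 fold change was -0.95, against 0.01 over all tested genes. Their summed level was 3182, 3351 and 3218 CPM in the week 2 roots and 2383, 2294 and 2542 CPM in the week 4 roots, so every week 4 library lay below every week 2 library. In the fit of all 12 libraries the median was -0.91 but 5 were called lower, also with scaling within each tissue.

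The histone with the most counts among the stable members, probable histone H2A.7 (BdiBd21-3.1G0333000, chromosome 1, 20941692 to 20942720), had 112, 94 and 100.2 CPM in the week 2 roots and 39.5, 46.9 and 62.6 CPM in the week 4 roots. The groups did not overlap, and the log2 fold change was -1.04 (± 0.17 SE, edgeR adjusted p = 0.00724). Histone copies are near identical, and the sources used here do not say how reads shared between them were counted, so the value of a single histone gene is less sure than that of the family.

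Genes that copy DNA fell in 24 of 49 cases (62 in the table), and 1 rose, replication factor C subunit 5 (BdiBd21-3.3G0698200, log2 fold change 0.75), named after its values were seen. Their median was -0.51. Lower calls numbered 15 without week 2 replicate 2, 13 without week 4 replicate 1, 11 without week 4 replicate 2, 8 in the fit of all 12 libraries and 11 in that fit with scaling within each tissue. The large subunit of ribonucleotide reductase (BdiBd21-3.1G0636000), which makes deoxyribonucleotides, had 50.5, 55.9 and 53.9 CPM at week 2 and 38.8, 35.1 and 38.5 CPM at week 4. Every week 4 value lay below every week 2 value, with a log2 fold change of -0.51 (± 0.09 SE, edgeR adjusted p = 0.00886). Proliferating cell nuclear antigen (BdiBd21-3.3G0723500), the sliding clamp of DNA polymerase, and the helicase subunit MCM2 (BdiBd21-3.4G0269800) were picked after their values were seen. The clamp gene had 63.3, 57.4 and 52.8 CPM at week 2 and 27.4, 27.8 and 40.0 CPM at week 4, a log2 fold change of -0.87 (± 0.16 SE, edgeR adjusted p = 0.00961). MCM2 had 76.2, 69.6 and 61.7 CPM at week 2 and 29.7, 30.5 and 43.9 CPM at week 4. On the log2 scale the change was -1.0 (± 0.16 SE, edgeR adjusted p = 0.00765), a call lost in the fits of all 12 libraries, and in both genes week 4 replicate 3 stood above the other week 4 roots.

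Cyclins and cyclin-dependent kinases, which drive the cell cycle, fell in 14 of 27 cases, and 0 rose by edgeR (2 at an unadjusted p under 0.05, 1 by DESeq2 and 0 by limma-voom). The median was -0.67, and lower calls numbered 9 without week 4 replicate 2, 2 in the fit of all 12 libraries and 2 in that fit with scaling within each tissue. Cyclin-B2-2 (BdiBd21-3.1G0398300), of a class that brings cells into mitosis, had 23.1, 25 and 25.9 CPM in the week 2 roots and 8.74, 8.95 and 12.4 CPM in the week 4 roots. No values overlapped, and the log2 fold change was -1.30 (± 0.16 SE, edgeR adjusted p = 0.00572). Kinesins, motor proteins of which many work in the spindle and the new cell plate, fell in 31 of 53 cases with a median of -0.73, and 0 rose by edgeR (0 at an unadjusted p under 0.05, 0 by DESeq2 and 0 by limma-voom). Lower calls numbered 20 without week 2 replicate 2, 7 in the fit of all 12 libraries and 8 in that fit with scaling within each tissue. The kinesin-like calmodulin-binding protein homolog (BdiBd21-3.5G0334500) had 57.5, 56.8 and 53.2 CPM at week 2 and 27.9, 31.8 and 38.5 CPM at week 4. It was lower in every week 4 root, with a log2 fold change of -0.77 (± 0.13 SE, edgeR adjusted p = 0.00738).

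Tubulins, the units of microtubules, had 3 of 14 genes lower (21.4%) and 1 higher (7.14%), against 11.9% and 11.1% of all genes. Lower calls numbered 1 without week 4 replicate 2, 9 without week 4 replicate 3, 1 in the fit of all 12 libraries, 1 in that fit with scaling within each tissue and 6 by DESeq2. Tubulin beta-2 chain (BdiBd21-3.1G1042900) had 81.4, 89.4 and 95.5 CPM at week 2 and 53.7, 58.7 and 57.3 CPM at week 4, a log2 fold change of -0.65 (± 0.09 SE, edgeR adjusted p = 0.00627). Tubulin alpha-2 chain (BdiBd21-3.1G0939500) went the other way, with 8.56, 10.3 and 12.1 CPM at week 2 and 24.5, 22.7 and 19.7 CPM at week 4. It was higher in every week 4 root, and its log2 fold change was 1.11 (± 0.16 SE, edgeR adjusted p = 0.00636).

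Regulators of the root meristem were looked up after values were seen. The 2 AP2 genes named BBM2 (BdiBd21-3.2G0739100) and AIL5 (BdiBd21-3.5G0319800) belong to a family that in Arabidopsis maintains the stem cells of the root tip. How many others of that family were tested or called is not given here, so these 2 do not stand for meristem regulators at large. BBM2 had 33.8, 24.7 and 27.2 CPM at week 2 and 11.4, 12.5 and 11.3 CPM at week 4. AIL5 had 45.3, 31.9 and 30.1 CPM at week 2 and 12.1, 12.8 and 16.4 CPM at week 4. Both were lower in every week 4 root, by a log2 fold change of -1.28 (± 0.15 SE, edgeR adjusted p = 0.00538) for BBM2 and -1.38 (± 0.19 SE, edgeR adjusted p = 0.00608) for AIL5, and both calls were stable. Genes described with a root cap domain had a median of -0.04, with 1 of 10 called lower and 0 higher by edgeR (0 at an unadjusted p under 0.05, 0 by DESeq2 and 0 by limma-voom). The 1 lower gene (BdiBd21-3.4G0591400) had 59.8, 73.2 and 66.9 CPM at week 2 and 42.4, 37.7 and 23.9 CPM at week 4. The fold change in log2 was -0.94 (± 0.20 SE, edgeR adjusted p = 0.0170), and the call was lost without week 2 replicate 2 and without week 4 replicate 2.

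Genes of the cytosolic ribosome fell almost as 1 group. Of 179 tested genes for its proteins (193 in the table), 158 fell and 1 rose, with a median log2 fold change of -0.72. The fit of all 12 libraries called 154 lower, and 110 of the calls were stable, against 2.62% of all genes. Summed over the genes, the level was 47411, 39953 and 39086 CPM in the week 2 roots and 23799, 24339.8 and 28774 CPM in the week 4 roots. The sum was 42149.9 ± 4577 CPM (SD, n = 3) at week 2 and 25638 ± 2729.7 CPM at week 4, without overlap, and week 2 replicate 1 was the highest library. The small-subunit protein gene S3-3 (BdiBd21-3.3G0217400), the most counted stable member, had 877, 748 and 720.4 CPM in the week 2 roots and 475, 475 and 517 CPM in the week 4 roots. All of its week 4 values lay below its week 2 values, and its log2 fold change was -0.68 (± 0.12 SE, edgeR adjusted p = 0.00866). The gene called higher, described as 60S ribosomal protein L18a-like (BdiBd21-3.2G0587000) and named after its values were seen, had a log2 fold change of 0.43.

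**Figure D2:**
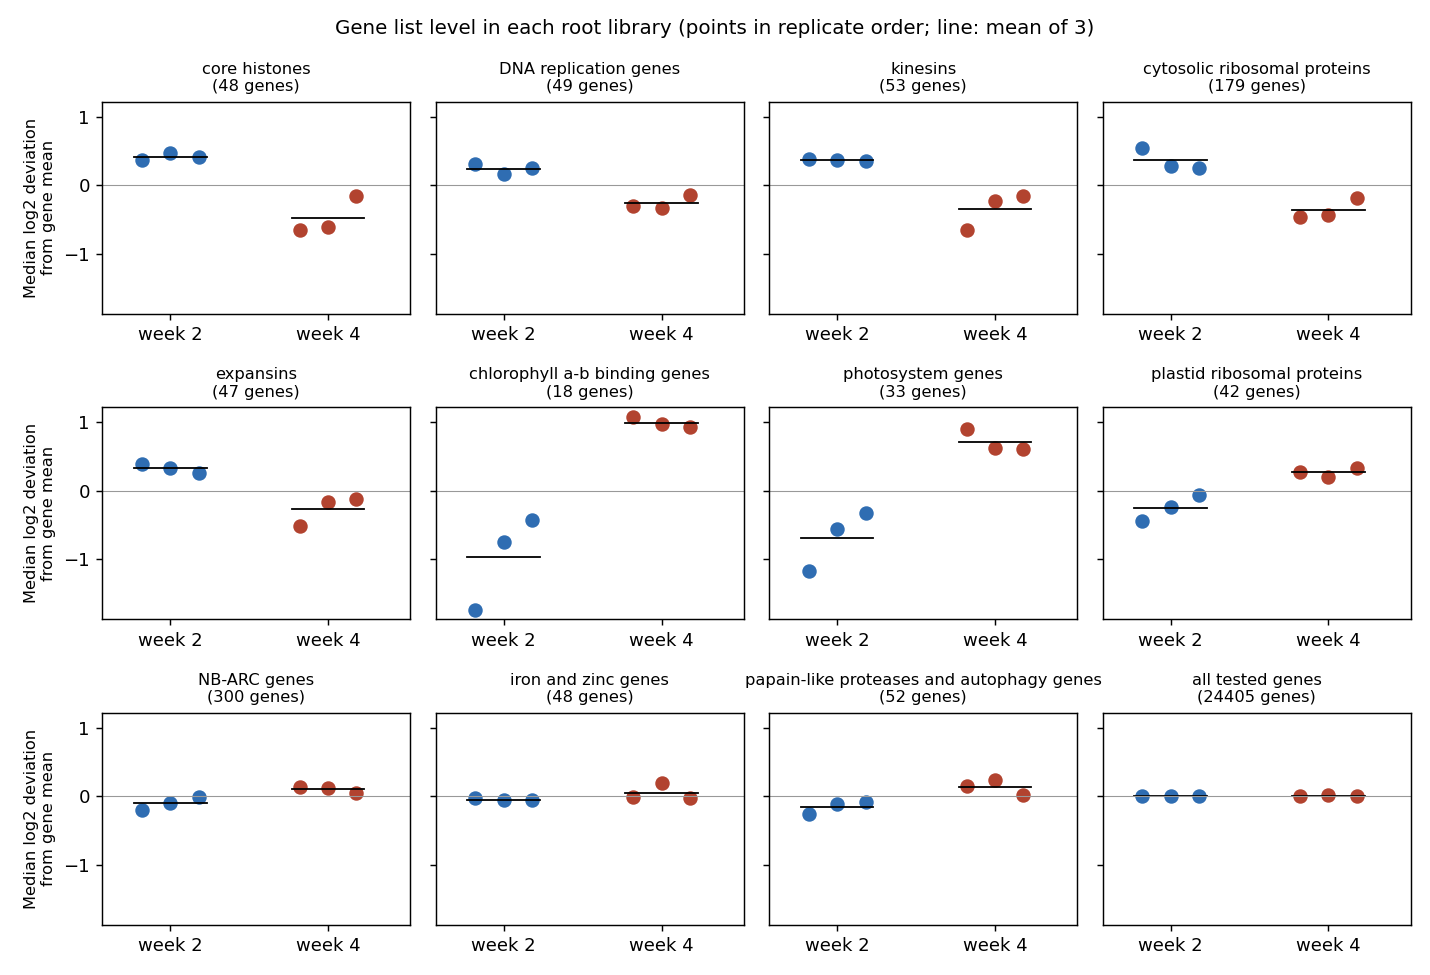
Median over the genes of a list of the log2 deviation of a library from the gene's mean over the 6 root libraries, with 1 point per library in replicate order and a line at the mean of 3. Histones, replication genes, kinesins, ribosomal proteins and expansins are above 0 in all week 2 and below 0 in all week 4 roots, the photosynthesis lists show the reverse, and the median over all tested genes stays near 0 in each library.

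Among genes that loosen and build the growing wall, lower calls outnumbered higher ones in each of 4 lists. In the order given below, they made up 46.8%, 33.3%, 28.6% and 22.6% of the tested members, against 11.9% of all genes. Except among expansins, where 22 of 47 were not called, most tested members of each list were not called. Expansins, which loosen walls so that cells can lengthen, fell in 22 of 47 cases (61 in the table) and rose in 3, with a median of -0.71. Their summed level was 1381, 1355 and 1298 CPM in the week 2 roots and 859.6, 924 and 949 CPM in the week 4 roots. Lower calls numbered 11 without week 2 replicate 2, 9 in the fit of all 12 libraries and 9 in that fit with scaling within each tissue. Expansin-A2 (BdiBd21-3.2G0686100) had 109.9, 84.9 and 96.6 CPM at week 2 and 55.7, 61.3 and 61.4 CPM at week 4, without overlap, and its log2 fold change was -0.71 (± 0.11 SE, edgeR adjusted p = 0.00697). The 3 genes that rose were expansin-like A2 (BdiBd21-3.3G0421500), expansin-like A1 (BdiBd21-3.1G1017100) and expansin-B9 (BdiBd21-3.2G0436800), the last 2 of them named after their values were seen. Expansin-like A2 had 28.5, 30.3 and 37 CPM at week 2 and 94.7, 65.9 and 57 CPM at week 4, a log2 fold change of 1.18 (± 0.20 SE, edgeR adjusted p = 0.00840). Without week 4 replicate 2, 1 expansin was called higher.

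Xyloglucan endotransglucosylase/hydrolases, which cut and rejoin the xyloglucan chains between cellulose fibres, fell in 8 of 24 cases and rose in 1, with a median of -0.69. Probable member 8 (BdiBd21-3.1G0337800) had 56.6, 50.9 and 56.1 CPM at week 2 and 26.6, 25.6 and 31.1 CPM at week 4. Its values did not overlap, and its log2 fold change was -0.97 (± 0.11 SE, edgeR adjusted p = 0.00538). The fits of all 12 libraries called 4 lower, and the 1 higher call was lost in every fit that left out a root library.

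Cellulose synthases and their relatives, which make cellulose and other wall glycans, fell in 10 of 35 cases and rose in 2, with a median of -0.42. Lower calls numbered 6 without week 4 replicate 2, 16 without week 4 replicate 3, 2 in the fit of all 12 libraries and 2 in that fit with scaling within each tissue. Probable mannan synthase 6 (BdiBd21-3.3G0782700) had 48.7, 47.3 and 40.6 CPM at week 2 and 22.2, 25.3 and 26.8 CPM at week 4, a log2 fold change of -0.88 (± 0.12 SE, edgeR adjusted p = 0.00572). The higher pair held probable cellulose synthase A catalytic subunit 2 (BdiBd21-3.1G0060500) with 8.81, 8.25 and 10.2 CPM at week 2 and 29.7, 22.7 and 16.7 CPM at week 4. Its week 4 values were all above its week 2 values, and the log2 fold change was 1.35 (± 0.21 SE, edgeR adjusted p = 0.00697). Pectin-modifying enzymes fell in 12 of 53 cases and rose in 1, the median being -0.30. Lower calls numbered 6 without week 2 replicate 1, 4 without week 2 replicate 2, 7 without week 2 replicate 3, 7 without week 4 replicate 1, 3 without week 4 replicate 2, 6 in the fit of all 12 libraries and 6 in that fit with scaling within each tissue. Pectin acetylesterase 2 (BdiBd21-3.1G0265000), which takes acetyl groups off pectin, had 72.3, 50.9 and 46.4 CPM at week 2 and 25.8, 24.6 and 28 CPM at week 4, a log2 fold change of -1.11 (± 0.17 SE, edgeR adjusted p = 0.00666).

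Class III peroxidases, a large family that both stiffens and loosens walls, went both ways, 20 of 125 lower (16%) and 7 higher (5.6%). Over all genes the shares were 11.9% and 11.1%. The median was -0.18, and the summed levels of the weeks overlapped. Lower calls numbered 13 without week 2 replicate 2, 13 without week 4 replicate 1, 8 without week 4 replicate 2, 6 in the fit of all 12 libraries and 6 in that fit with scaling within each tissue. Peroxidase 47 (BdiBd21-3.5G0363500) had 37.2, 32.8 and 50.3 CPM at week 2 and 183, 115 and 94.9 CPM at week 4. It was higher in every week 4 root, highest in replicate 1, with a log2 fold change of 1.71 (± 0.28 SE, edgeR adjusted p = 0.00988). Peroxidase 16 (BdiBd21-3.5G0323600) had 32, 27.3 and 25.7 CPM at week 2 and 9.21, 12.7 and 15.8 CPM at week 4, a log2 fold change of -1.17 (± 0.20 SE, edgeR adjusted p = 0.00785).

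Barrier and lignin genes showed no common direction. Lignin enzymes and laccases fell in 8 and rose in 5 of 60 cases with a median of -0.07. Casparian strip and dirigent genes fell in 6 and rose in 3 of 52, with a median of -0.06, and suberin, cutin and wax genes fell in 6 and rose in 5 of 57, with a median of 0.03. These shares are near or under those of all genes (11.1% and 11.9%), and the summed levels of all 3 groups overlapped between the weeks. Fits without 1 library called 3 to 12, 2 to 7 and 2 to 6 lower and 1 to 4, 0 to 5 and 1 to 4 higher in these 3 groups.

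Cinnamoyl-CoA reductase 1 (BdiBd21-3.3G0484900), the entry into lignin precursors, had 165, 148 and 130.1 CPM at week 2 and 91.5, 104 and 102 CPM at week 4. This came to a log2 fold change of -0.58 (± 0.11 SE, edgeR adjusted p = 0.0110). Dirigent protein 3 (BdiBd21-3.1G0272900), of a family that guides the coupling of phenolic units, had 162, 140.1 and 136 CPM at week 2 and 76.8, 64.9 and 86.7 CPM at week 4, a log2 fold change of -0.94 (± 0.13 SE, edgeR adjusted p = 0.00576). Probable glycerol-3-phosphate acyltransferase 3 (BdiBd21-3.2G0152800), of a family that starts suberin and cutin building blocks, had 27.6, 42.3 and 35.4 CPM at week 2 and 93.8, 63 and 66.7 CPM at week 4. It rose by a log2 fold change of 1.08 (± 0.20 SE, edgeR adjusted p = 0.0110), and values did not overlap in any of these 3 genes. Long chain acyl-CoA synthetase 9 (BdiBd21-3.4G0341700), which activates fatty acids, fell by a log2 fold change of -0.68 (± 0.10 SE, edgeR adjusted p = 0.00666). Phenylalanine ammonia-lyase (BdiBd21-3.3G0653500), the first enzyme of the phenylpropanoid pathway and picked after its values were seen, had 2387, 1892 and 2099 CPM at week 2 and 3196, 3005 and 3196 CPM at week 4. edgeR gave a log2 fold change of 0.56 (± 0.14 SE, edgeR adjusted p = 0.0255), a call lost in the fits of all 12 libraries, with the replicate block, and without week 2 replicate 2 or 3 or week 4 replicate 1 or 2.

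**Figure D3:**
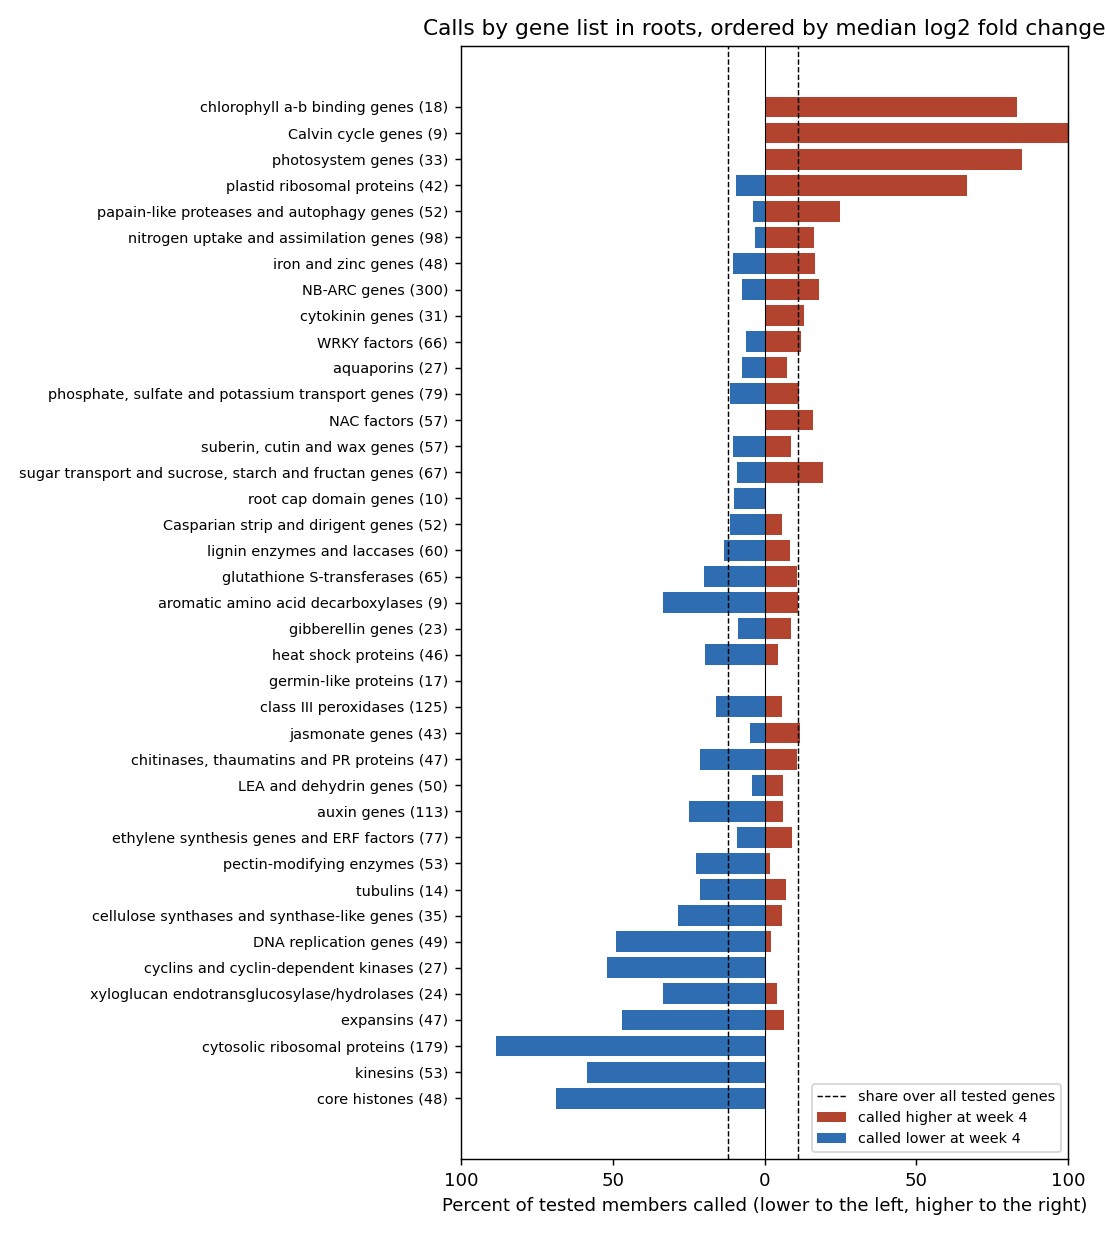
Percent of the tested members of each of 39 gene lists called higher (right, red) or lower (left, blue) at week 4 in roots by edgeR, ordered by median log2 fold change with the number of tested members in brackets. Dashed lines mark the shares over all tested genes, 11.1% and 11.9%, and cytosolic ribosomal proteins reach 88.3% lower while Calvin cycle genes reach 100% higher (9 of 9).

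Genes of photosynthesis were higher in the older roots. Chlorophyll a-b binding proteins, which harvest light, had 15 of 18 tested members higher and 0 lower by edgeR (0 at an unadjusted p under 0.05, 0 by DESeq2 and 0 by limma-voom), with a median log2 fold change of 1.91. Their summed level was 996, 1877 and 2465 CPM in the week 2 roots and 7942, 7215 and 6753 CPM in the week 4 roots. The weeks did not overlap, and week 2 replicate 1 was the lowest library. Photosystem genes rose in 28 of 33 tested cases with a median of 1.48, and 0 fell by edgeR (0 at an unadjusted p under 0.05, 0 by DESeq2 and 0 by limma-voom). Of the 87 photosystem genes in the table, 54 did not pass the count filter. All 9 tested Calvin cycle genes, which fix carbon dioxide, rose, with a median of 1.54. Summed over the 17 in the table, the level was 1167, 2055 and 2571 CPM in the week 2 roots and 6281, 5392 and 5078 CPM in the week 4 roots. Leaving out week 4 replicate 1 left 9, 16 and 4 higher calls in these 3 lists. Without week 2 replicate 2 the photosystem list had 16 higher calls, and without week 4 replicate 2 it had 18.

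Chlorophyll a-b binding protein 1 (BdiBd21-3.4G0519700, chromosome 4, 42594857 to 42597516), the most counted of them, had 298, 469 and 596 CPM in the week 2 roots and 1913, 1787 and 1626 CPM in the week 4 roots. The log2 fold change came to 1.97 (± 0.24 SE, edgeR adjusted p = 0.00572). Photosystem II 10 kDa polypeptide (BdiBd21-3.3G0242100) had 140.2, 221 and 267 CPM at week 2 and 689, 527 and 537 CPM at week 4. Its log2 fold change was 1.48 (± 0.24 SE, edgeR adjusted p = 0.00772). A small chain of the carbon-fixing enzyme RuBisCO (BdiBd21-3.4G0116800) had 351, 505 and 647 CPM at week 2 and 1561, 1230.0 and 1247 CPM at week 4, a log2 fold change of 1.43 (± 0.22 SE, edgeR adjusted p = 0.00700). In all 3 genes every week 4 root lay above every week 2 root, and within week 2 replicate 1 was the lowest.

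Levels of these genes stayed far under those of shoots. Of the chlorophyll a-b binding genes, 17 had at least 100 CPM in every shoot library, and in roots their median was 1.90% of the shoot level at week 2 and 8.47% at week 4. A further 1354 genes outside the plastid lists had at least 100 CPM in every shoot library. Their median was 75.6% of the shoot level in week 2 roots and 69.9% in week 4 roots. At the low end, 26 of them lay under 1% and 13 under 0.1% in week 2 roots, against 20 and 12 in week 4 roots, where the lowest had no count.

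Genes for plastid ribosomal proteins, which translate the plastid's own genes, rose in 28 of 42 tested cases and fell in 4, opposite in majority to those of the cytosol. Their median was 0.54 and their summed level 1425, 1596 and 1778 CPM in the week 2 roots and 2228, 2139 and 2313 CPM in the week 4 roots. Higher calls numbered 11 without week 2 replicate 2, 17 without week 4 replicate 1 and 15 without week 4 replicate 2. Chloroplastic L12-2 (BdiBd21-3.2G0583400) had 88.8, 101 and 124 CPM at week 2 and 164, 165 and 178 CPM at week 4, without overlap, and its log2 fold change was 0.69 (± 0.13 SE, edgeR adjusted p = 0.00990). Chloroplastic L3-2 (BdiBd21-3.2G0116900) had 51.1, 42.6 and 44.3 CPM at week 2 and 30.9, 29.8 and 32.6 CPM at week 4. It fell by a log2 fold change of -0.56 (± 0.10 SE, edgeR adjusted p = 0.00975), and the other 3 that fell, named after their values were seen, were described as S16-2 (BdiBd21-3.4G0476300, log2 fold change -0.62), L19 (BdiBd21-3.1G0499600, -0.82) and L10 (BdiBd21-3.2G0480100, -0.48). The bZIP gene named CPRF2 (BdiBd21-3.4G0031800), after a parsley factor that binds promoters switched on by light, had 18.6, 26.2 and 29 CPM at week 2 and 133, 97.9 and 115 CPM at week 4. Its log2 fold change of 2.23 (± 0.18 SE, edgeR adjusted p = 0.00513) was among the 8 highest of the stable genes whose log2 CPM averaged 4 or more. In shoots it averaged 483 CPM at week 2 and 1112 CPM at week 4.

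**Figure D4:**
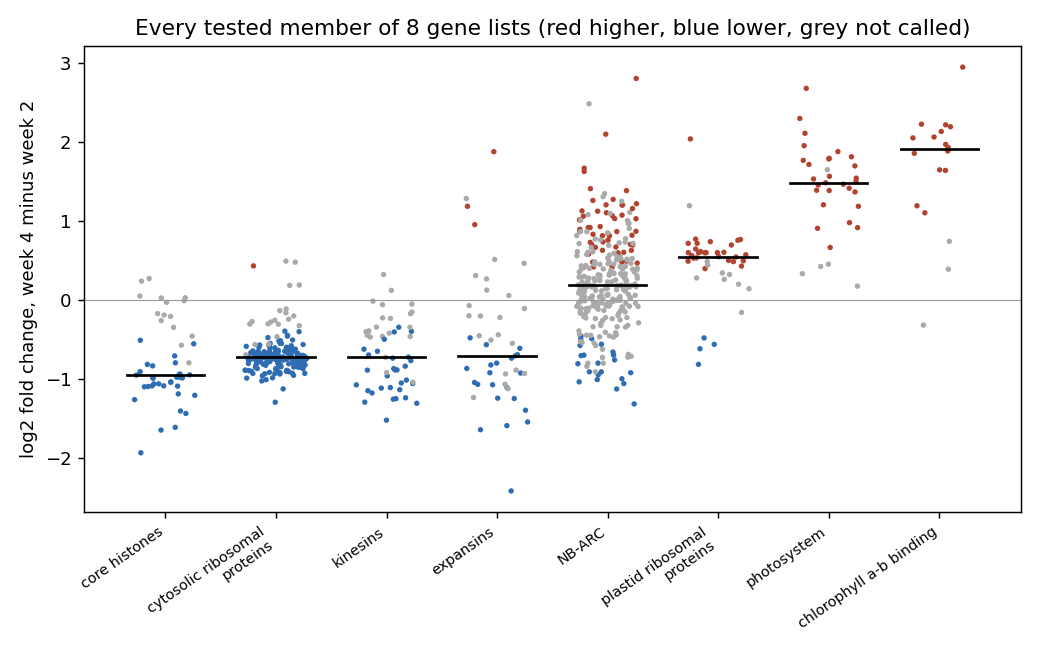
Log2 fold change, week 4 minus week 2, of every tested member of 8 gene lists, with 1 point per gene (red called higher, blue called lower, grey not called by edgeR) and a line at the list's median. The medians run from -0.95 in core histones to 1.91 in chlorophyll a-b binding genes, and NB-ARC genes spread to both sides of 0.

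Nutrient genes were called in both directions. Nitrogen uptake and assimilation genes rose in 16 of 98 tested cases and fell in 3, or 16.3% and 3.06%, against 11.1% and 11.9% of all genes. Their median was 0.24. Higher calls numbered 4 without week 2 replicate 2, 5 without week 4 replicate 1 and 6 without week 4 replicate 2. Of the 16, 13 were NRT1/PTR family genes, whose proteins carry nitrate or peptides. How many of the 98 tested genes belong to that family is not given here, so this count shows no excess of it. The most counted stable one (BdiBd21-3.2G0321700) had 44.8, 55.9 and 58 CPM at week 2 and 86.8, 93.7 and 82.7 CPM at week 4. All week 4 values were higher, with a log2 fold change of 0.73 (± 0.12 SE, edgeR adjusted p = 0.00710). The other 3, picked after their values were seen, were an ammonium transporter, a glutamate synthase and an asparagine synthetase. Ferredoxin-dependent glutamate synthase (BdiBd21-3.1G0249400), which makes glutamate in plastids, had 467, 790.5 and 749.7 CPM at week 2 and 973, 1255 and 1027 CPM at week 4. On the log2 scale the change was 0.70 (± 0.21 SE, edgeR adjusted p = 0.0461), and the call was lost in every fit that left out 1 root library. Asparagine synthetase (BdiBd21-3.4G0624100), which makes a nitrogen-rich amino acid that plants move between organs, had 43.6, 59.3 and 63.7 CPM at week 2 and 210.4, 149 and 81.1 CPM at week 4, a log2 fold change of 1.40 (± 0.36 SE, edgeR adjusted p = 0.0385) whose call was lost in the fits of all 12 libraries, with the replicate block, and in every fit without 1 root library except that without week 4 replicate 3. Among the 3 lower genes was cytosolic glutamine synthetase 1-1 (BdiBd21-3.3G0789600), which binds ammonium into glutamine and was picked after its values were seen. It had 952, 881 and 810.1 CPM at week 2 and 501, 616 and 672 CPM at week 4. Its log2 fold change was -0.56 (± 0.14 SE, edgeR adjusted p = 0.0249). The 3 lower calls of the list became 0 without week 2 replicate 2, week 4 replicate 1 or week 4 replicate 2.

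Phosphate, sulfate and potassium transport genes were called higher in 9 and lower in 9 of 79 cases, a share near that of all genes, and fits without 1 library gave 3 to 9 higher and 4 to 10 lower. The SPX domain membrane protein gene (BdiBd21-3.1G0660300), of a class that moves or senses phosphate, had 137, 173 and 186 CPM at week 2 and 348, 328 and 299 CPM at week 4. It rose by a log2 fold change of 0.97 (± 0.13 SE, edgeR adjusted p = 0.00591). Plastid phosphate transporter 2-1 (BdiBd21-3.3G0630700), picked after its values were seen, rose by 1.47 (± 0.27 SE, edgeR adjusted p = 0.00990) on the log2 scale, with 7.2, 7.08 and 12.7 CPM at week 2 and 30.3, 24.2 and 19.8 CPM at week 4. Of the 9 lower genes, 5 were also described with an SPX domain, and how many of the 79 tested genes have that domain is not given here. Aquaporins, the water channels, had 2 of 27 higher and 2 lower, or 7.41% each, under the shares of all genes. PIP2-5 (BdiBd21-3.1G0006600) had 32.8, 28.1 and 30.7 CPM at week 2 and 19.1, 19.7 and 19.4 CPM at week 4. The fold change in log2 was -0.65 (± 0.11 SE, edgeR adjusted p = 0.00725).

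Iron and zinc genes moved in both directions. Of 48, 8 rose and 5 fell, or 16.7% and 10.4%, against 11.1% and 11.9% of all genes. Higher calls numbered 4 without week 2 replicate 2, 5 without week 2 replicate 3, 4 without week 4 replicate 1 and 5 without week 4 replicate 2. The 5 that fell included genes whose products make phytosiderophores, the iron chelators that grasses secrete. The largest change was that of nicotianamine synthase 2 (BdiBd21-3.3G0143100, chromosome 3, 8878688 to 8880073), whose product is their precursor, with 1332, 188 and 168 CPM in the week 2 roots and 40.5, 11.3 and 37.9 CPM in the week 4 roots. Week 2 replicate 1 was far above the other week 2 roots, and the log2 fold change of -4.23 (± 1.12 SE, edgeR adjusted p = 0.0485) lost its call under upper-quartile scaling, in the fits of all 12 libraries, and without week 2 replicate 2 or any of the week 4 libraries. A gene named for 2'-deoxymugineic-acid 2'-dioxygenase (BdiBd21-3.4G0605300), a barley enzyme that modifies a phytosiderophore, had 3416, 1685 and 1631 CPM at week 2 and 887, 898 and 1303 CPM at week 4. This came to a log2 fold change of -1.12 (± 0.32 SE, edgeR adjusted p = 0.0439), lost in the fits of all 12 libraries, with the replicate block, and without week 2 replicate 2 or any of the week 4 libraries. Both were picked after their values were seen. The 5 lower calls became 0 without week 2 replicate 2, week 4 replicate 1 or week 4 replicate 2, and 8 by DESeq2. The higher genes included the metal-nicotianamine transporter YSL2 (BdiBd21-3.3G0666100) with 12.9, 11.2 and 12.4 CPM at week 2 and 27, 25.7 and 20.3 CPM at week 4. All its week 4 values were higher, and its log2 fold change was 1.0 (± 0.15 SE, edgeR adjusted p = 0.00630).

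Sugar genes rose in 13 of 67 cases and fell in 6, or 19.4% and 8.96%, against 11.1% and 11.9% of all genes. The median was -0.01. Higher calls numbered 7 without week 2 replicate 2, 7 without week 4 replicate 1 and 5 without week 4 replicate 2. An insoluble beta-fructofuranosidase (BdiBd21-3.5G0332700), which splits sucrose in the wall, had 80.4, 72 and 85.6 CPM at week 2 and 162, 131 and 124 CPM at week 4. edgeR gave a log2 fold change of 0.81 (± 0.13 SE, edgeR adjusted p = 0.00689). Hexose carrier HEX6 (BdiBd21-3.4G0216000), picked after its values were seen, had 8.26, 6.51 and 13 CPM at week 2 and 39.1, 29.5 and 23.2 CPM at week 4, a log2 fold change of 1.73 (± 0.29 SE, edgeR adjusted p = 0.00917). Both were higher in every week 4 root. Sucrose:sucrose 1-fructosyltransferase (BdiBd21-3.3G0009900), which starts the storage sugars called fructans, had 131, 143 and 158 CPM at week 2 and 74, 80.9 and 89.7 CPM at week 4. It was lower in every week 4 root, with a log2 fold change of -0.82 (± 0.11 SE, edgeR adjusted p = 0.00572).

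Of the hormone lists, that of auxin had the largest share of lower genes: 28 of 113 fell (24.8%) and 7 rose (6.19%), with a median of -0.25. Over all genes 11.9% fell and 11.1% rose. Lower calls numbered 17 without week 2 replicate 1, 13 without week 2 replicate 2, 14 without week 4 replicate 1, 9 without week 4 replicate 2, 11 in the fit of all 12 libraries and 14 in that fit with scaling within each tissue. Probable auxin efflux carrier 1c (BdiBd21-3.1G0588300), of the PIN proteins that move auxin towards and through the root tip, had 157, 135 and 134 CPM at week 2 and 81.5, 64.2 and 87 CPM at week 4. Efflux carrier 2 (BdiBd21-3.1G0422900), picked after its values were seen and named for the PIN needed for root bending to gravity in Arabidopsis, had 79.4, 73.5 and 66.7 CPM at week 2 and 28.7, 30.7 and 39.9 CPM at week 4. Neither gene overlapped between the weeks, and the log2 fold changes were -0.87 (± 0.13 SE, edgeR adjusted p = 0.00666) and -1.15 (± 0.14 SE, edgeR adjusted p = 0.00572). Auxin-responsive protein IAA6 (BdiBd21-3.2G0631900), a repressor of auxin response, rose, with 78.3, 80.9 and 90.5 CPM at week 2 and 172, 158 and 127 CPM at week 4. The log2 fold change came to 0.87 (± 0.13 SE, edgeR adjusted p = 0.00641). An auxin-conjugating GH3.12 gene (BdiBd21-3.2G0093700), picked after its values were seen, rose by 1.38 (± 0.26 SE, edgeR adjusted p = 0.0121) on the log2 scale.

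Cytokinin genes rose in 4 of 31 cases, 12.9% against 11.1% of all genes, and 0 fell by edgeR (0 at an unadjusted p under 0.05, 0 by DESeq2 and 0 by limma-voom). Higher calls numbered 2 without week 4 replicate 1, 0 without week 4 replicate 2 and 7 by limma-voom. Response regulator ORR2 (BdiBd21-3.3G0609300) had 104, 145 and 152 CPM at week 2 and 196, 225 and 219.6 CPM at week 4, a log2 fold change of 0.67 (± 0.15 SE, edgeR adjusted p = 0.0169) that lost its call without week 4 replicate 2. The other 3, named after their values were seen, were response regulator ORR24 (BdiBd21-3.3G0079900, log2 fold change 0.48) and 2 cytokinin dehydrogenases, which break cytokinin down, 11 (BdiBd21-3.3G0497100, 0.62) and 3 (BdiBd21-3.3G0380900, 0.68). Ethylene synthesis genes and ERF factors had 7 higher and 7 lower of 77, or 9.09% each, under the 11.1% and 11.9% of all genes. Without week 2 replicate 1, 13 were higher and 3 lower, and without week 4 replicate 3, 12 were lower. Ethylene-responsive factor 1A (BdiBd21-3.5G0229100) had 129.8, 109 and 122 CPM at week 2 and 224, 215 and 238 CPM at week 4, a log2 fold change of 0.91 (± 0.10 SE, edgeR adjusted p = 0.00538). CRF4 (BdiBd21-3.2G0095800) had 15.7, 16.5 and 15.7 CPM at week 2 and 5.56, 6.18 and 7.55 CPM at week 4, a log2 fold change of -1.31 (± 0.16 SE, edgeR adjusted p = 0.00561). Neither overlapped. The 2 called genes for ACC oxidase, the last enzyme of ethylene synthesis, were picked after their values were seen: BdiBd21-3.2G0449800 had 11.8, 18.1 and 27.6 CPM at week 2 and 55.2, 60.4 and 70.4 CPM at week 4 and BdiBd21-3.3G0762700 had 8.31, 7.38 and 8.3 CPM at week 2 and 39.7, 22.8 and 20.3 CPM at week 4. They rose by 1.69 (± 0.29 SE, edgeR adjusted p = 0.0107) and 1.79 (± 0.26 SE, edgeR adjusted p = 0.00650) on the log2 scale.

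Jasmonate genes rose in 5 (11.6%) and fell in 2 (4.65%) of 43 cases, against 11.1% and 11.9% of all genes. Fits without 1 library gave 1 to 4 higher and 1 to 6 lower. Putative 12-oxophytodienoate reductase 4 (BdiBd21-3.2G0450100), of the enzymes that make jasmonate precursors, had 213, 172 and 181 CPM at week 2 and 95.3, 97.4 and 98 CPM at week 4. It fell by a log2 fold change of -0.96 (± 0.10 SE, edgeR adjusted p = 0.00538). Chloroplastic lipoxygenase 2.3 (BdiBd21-3.3G0092400), of a family that oxidises the fatty acids used for jasmonate, rose from few counts, with 0.504, 0.391 and 0.522 CPM at week 2 and 9.58, 3.4 and 2.5 CPM at week 4. Its log2 fold change was 3.44 (± 0.58 SE, edgeR adjusted p = 0.00832), and week 4 replicate 1 was the highest library. In shoots this gene averaged 487 CPM at week 2 and 319 CPM at week 4. Gibberellin genes had 2 of 23 higher and 2 lower, or 8.7% each, under the shares of all genes. Gibberellin-regulated protein 12 (BdiBd21-3.4G0425200) had 44.4, 31.3 and 34.4 CPM at week 2 and 17, 16.4 and 19.2 CPM at week 4. Its log2 fold change of -1.07 (± 0.15 SE, edgeR adjusted p = 0.00614) lost its call in the fits of all 12 libraries. LEA and dehydrin genes, known from drying cells, had 3 of 50 higher (6%) and 2 lower (4%), also under those shares. The most counted called member (BdiBd21-3.2G0412500) had a log2 fold change of -0.41 (± 0.12 SE, edgeR adjusted p = 0.0382). Its call was lost in several fits, among them those of all 12 libraries.

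Papain-like proteases and autophagy genes, which recycle protein, rose in 13 of 52 cases (25%) and fell in 2 (3.85%), with a median of 0.28. Over all genes 11.1% rose and 11.9% fell. Their summed level was 4721, 5315 and 5173 CPM in the week 2 roots and 6181, 6627 and 5784 CPM in the week 4 roots, without overlap. Higher calls numbered 6 without week 2 replicate 1, 5 without week 2 replicate 2, 7 without week 2 replicate 3, 6 without week 4 replicate 1 and 3 without week 4 replicate 2. ATG8-interacting protein 1 (BdiBd21-3.4G0540600), named for a partner of the core autophagy protein ATG8, had 22.8, 22.6 and 26.6 CPM at week 2 and 39.7, 41.4 and 38.1 CPM at week 4, a log2 fold change of 0.73 (± 0.11 SE, edgeR adjusted p = 0.00641). Oryzain alpha chain (BdiBd21-3.5G0315700), a cysteine protease, had 26.1, 19.4 and 20.4 CPM at week 2 and 11.2, 14.6 and 12.7 CPM at week 4, a log2 fold change of -0.78 (± 0.16 SE, edgeR adjusted p = 0.0141). Neither gene overlapped between the weeks.

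Senescence-specific cysteine protease SAG39 (BdiBd21-3.5G0148400, chromosome 5, 15559221 to 15561408), named for a rice gene of ageing leaves and picked after its values were seen, had 1.01, 0.781 and 2.96 CPM in the week 2 roots and 37.4, 10.8 and 19.6 CPM in the week 4 roots. The groups were far apart, the week 4 libraries differed among themselves, and the log2 fold change was 3.87 (± 0.69 SE, edgeR adjusted p = 0.0152). The vacuolar protease aleurain (BdiBd21-3.4G0441600), also picked later, had 631, 748 and 740.1 CPM at week 2 and 1069, 1042 and 866 CPM at week 4, a log2 fold change of 0.49 (± 0.13 SE, edgeR adjusted p = 0.0333) whose call was lost in most fits without 1 library. NAC factors rose in 9 of 57 cases, 15.8% against 11.1% of all genes, with a median of 0.05, and 0 fell by edgeR (2 at an unadjusted p under 0.05, 1 by DESeq2 and 1 by limma-voom). Their summed level was 2487, 2253 and 2306 CPM in the week 2 roots and 2662, 2864 and 2739 CPM in the week 4 roots. Higher calls numbered 5 without week 4 replicate 1 and 4 without week 4 replicate 2. NAC 68 (BdiBd21-3.2G0681500) had 9.62, 10.7 and 11.7 CPM at week 2 and 25.3, 16.2 and 27.8 CPM at week 4, a log2 fold change of 1.11 (± 0.21 SE, edgeR adjusted p = 0.00986). NAM-B1 (BdiBd21-3.1G0858200), named for a wheat gene that speeds leaf ageing and picked after its values were seen, had 2.67, 1.52 and 1.22 CPM at week 2 and 6.97, 5.3 and 3.29 CPM at week 4. Its log2 fold change of 1.52 (± 0.38 SE, edgeR adjusted p = 0.0250) lost its call in 4 of the 6 fits without 1 library. NAC 56 (BdiBd21-3.4G0610500), also picked later, rose by 1.49 (± 0.29 SE, edgeR adjusted p = 0.0120) on the log2 scale.

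Defence genes moved in both directions. Of 300 tested NB-ARC genes (370 in the table), the nucleotide-binding receptors of plant immunity, 54 rose (18%) and 22 fell (7.33%). Over all genes these shares were 11.1% and 11.9%. The median was 0.19, and the summed level was 4806, 5143 and 5419.7 CPM in the week 2 roots and 6010.0, 5975 and 5674 CPM in the week 4 roots. Higher calls numbered 30 without week 2 replicate 2, 24 without week 4 replicate 1 and 21 without week 4 replicate 2. A gene named At4g33300 (BdiBd21-3.4G0042300) had 70.0, 80.1 and 94.5 CPM at week 2 and 194, 168 and 137 CPM at week 4, a log2 fold change of 1.03 (± 0.16 SE, edgeR adjusted p = 0.00675). One named RPM1 (BdiBd21-3.4G0129400) had 126, 105 and 108 CPM at week 2 and 49.2, 50.2 and 70.3 CPM at week 4, a log2 fold change of -1.0 (± 0.15 SE, edgeR adjusted p = 0.00689). The former was higher and the latter lower in every week 4 root. Many members of this family are close copies, and reads could be split between them.

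Chitinases, thaumatins and PR proteins fell in 10 and rose in 5 of 47 cases, or 21.3% and 10.6%, against 11.9% and 11.1% of all genes. The median log2 fold change was -0.22, while the summed level was 2790.1 ± 225 CPM (SD, n = 3) at week 2 and 3736 ± 409 CPM at week 4, without overlap. Most of that rise was that of 1 gene, of the PR-1 type, with a mean of 1312 CPM at week 2 and 2243 CPM at week 4. That gene (BdiBd21-3.1G0165000), among the 5 that rose and picked after its values were seen, had 1465, 1078 and 1393 CPM at week 2 and 2686, 2062 and 1981 CPM at week 4. On the log2 scale the change was 0.77 (± 0.18 SE, edgeR adjusted p = 0.0189), lost in the fits of all 12 libraries and without week 2 replicate 2, week 4 replicate 1 or week 4 replicate 2. Another PR-1 gene (BdiBd21-3.3G0709900) went the other way, with 29.3, 18.2 and 15.4 CPM at week 2 and 5.42, 5.55 and 7.55 CPM at week 4, a log2 fold change of -1.76 (± 0.26 SE, edgeR adjusted p = 0.00677). Thaumatin-like protein 1 (BdiBd21-3.4G0507300) had 44.6, 71.6 and 68.3 CPM at week 2 and 264, 145 and 174 CPM at week 4, a log2 fold change of 1.66 (± 0.27 SE, edgeR adjusted p = 0.00946). Lower calls numbered 6 without week 4 replicate 2, 5 in the fit of all 12 libraries and 5 in that fit with scaling within each tissue. Higher calls numbered 2 without week 2 replicate 1, 2 without week 2 replicate 2, 1 without week 4 replicate 1 and 1 without week 4 replicate 2. The fits of all 12 libraries each called 2 higher.

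WRKY factors, regulators of defence and ageing, rose in 8 and fell in 4 of 66 cases. The shares, 12.1% and 6.06%, are near and under those of all genes, 11.1% and 11.9%. Without week 2 replicate 2, week 4 replicate 1 or week 4 replicate 2, 4 were higher and 1 or 2 lower. Probable WRKY 69 (BdiBd21-3.2G0638300) had 115, 120.3 and 114 CPM at week 2 and 172, 173 and 165 CPM at week 4, a log2 fold change of 0.54 (± 0.08 SE, edgeR adjusted p = 0.00678). Glutathione S-transferases, which detoxify, fell in 13 and rose in 7 of 65, or 20% and 10.8%, against 11.9% and 11.1% of all genes. GSTU6 (BdiBd21-3.3G0414900) had 110.3, 116 and 108 CPM at week 2 and 65.8, 82.1 and 74.2 CPM at week 4. Its log2 fold change was -0.59 (± 0.10 SE, edgeR adjusted p = 0.00823). Heat shock proteins fell in 9 and rose in 2 of 46, or 19.6% and 4.35%, against the same shares of all genes. The mitochondrial 70 kDa protein (BdiBd21-3.3G0759700), a chaperone of protein import, had 388, 329 and 329.9 CPM at week 2 and 181, 210.3 and 230.1 CPM at week 4. The fold change in log2 was -0.75 (± 0.13 SE, edgeR adjusted p = 0.00760). None of these 3 genes overlapped between the weeks. Fits without 1 library gave 5 to 14 lower glutathione S-transferases and 3 to 8 lower heat shock proteins. Germin-like proteins had 0 of 17 called in either direction by edgeR, with 0 higher and 2 lower at an unadjusted p under 0.05 and 2 lower by DESeq2. Without week 2 replicate 1, 1 germin-like gene was called higher and 3 lower.

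Aromatic amino acid decarboxylases, which make tyramine from tyrosine or dopamine from DOPA, bear on the series title. Of 9 tested genes, 3 fell (33.3%) and 1 rose (11.1%), against 11.9% and 11.1% of all genes. Tyrosine/DOPA decarboxylase 3 (BdiBd21-3.2G0654700, chromosome 2, 50299692 to 50301602) had 306, 245 and 252 CPM in the week 2 roots and 144, 162 and 169 CPM in the week 4 roots. Every week 4 root lay below every week 2 root, with a log2 fold change of -0.76 (± 0.12 SE, edgeR adjusted p = 0.00697). A second gene of that name (BdiBd21-3.2G0653800) fell by a log2 fold change of -0.60 (± 0.17 SE, edgeR adjusted p = 0.0389), and another described as aromatic-L-amino-acid decarboxylase (BdiBd21-3.3G0196500) by -0.92 (± 0.21 SE, edgeR adjusted p = 0.0168). The 1 higher gene, tyrosine decarboxylase 1 (BdiBd21-3.1G0383800), had 5.64, 7.73 and 11.6 CPM at week 2 and 16.1, 12.7 and 15.6 CPM at week 4, a log2 fold change of 0.83 (± 0.25 SE, edgeR adjusted p = 0.0482) that was lost in every fit without 1 root library except that without week 2 replicate 3. The last 3 were named after their values were seen. Lower calls numbered 1 without week 4 replicate 1, 1 without week 4 replicate 2, 1 in the fit of all 12 libraries and 1 in that fit with scaling within each tissue. Summed over all 13 such genes in the table, tested or not, the levels of the weeks overlapped.

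Among stable genes whose log2 CPM averaged 4 or more, the 8 with the largest change in each direction are given here. The highest was a gene described as phosphomannomutase/phosphoglucomutase (BdiBd21-3.1G0543100, chromosome 1, 39107467 to 39110474), an enzyme type that moves phosphate within hexoses. It had 2.92, 5.38 and 6.27 CPM in the week 2 roots and 43.7, 25.5 and 27.6 CPM in the week 4 roots, and its log2 fold change was 2.73 (± 0.33 SE, edgeR adjusted p = 0.00572). Inosine-5'-monophosphate dehydrogenase (BdiBd21-3.3G0733800, chromosome 3, 55682728 to 55684994), the entry into guanine nucleotides, had 5.49, 9.9 and 14.4 CPM at week 2 and 73.2, 49.3 and 46.4 CPM at week 4, a log2 fold change of 2.51 (± 0.37 SE, edgeR adjusted p = 0.00820). A gene matched to 7-deoxyloganetin glucosyltransferase (BdiBd21-3.3G0774000), a sugar-transferring enzyme type, had 6.24, 5.9 and 6.09 CPM at week 2 and 45.3, 25.9 and 21.7 CPM at week 4. This came to a log2 fold change of 2.35 (± 0.28 SE, edgeR adjusted p = 0.00572), and in all 3 of these genes week 4 replicate 1 was the highest library.

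An acetyltransferase matched to At3g50280 (BdiBd21-3.2G0706800) had 44.3, 38.3 and 80.8 CPM at week 2 and 369, 263 and 171 CPM at week 4, a log2 fold change of 2.30 (± 0.40 SE, edgeR adjusted p = 0.0139). The chlorophyll a-b binding gene BdiBd21-3.1G0204500 had 61.3, 127 and 166 CPM at week 2 and 539, 532 and 546 CPM at week 4, a log2 fold change of 2.19 (± 0.34 SE, edgeR adjusted p = 0.00910). The other two of the 8, BdiBd21-3.3G0059550 with 12.3, 19.5 and 15.3 CPM at week 2 and 149, 92.4 and 60.9 CPM at week 4 and BdiBd21-3.3G0611400 with 5.39, 3.3 and 7.37 CPM at week 2 and 35.1, 23.3 and 20.8 CPM at week 4, have no description. Their log2 fold changes were 2.68 (± 0.37 SE, edgeR adjusted p = 0.00800) and 2.31 (± 0.32 SE, edgeR adjusted p = 0.00674).

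Among the 8 lowest, BdiBd21-3.3G0360700, which has no description, had 42.4, 32.1 and 17 CPM at week 2 and 5.61, 3.45 and 5.7 CPM at week 4, a log2 fold change of -2.64 (± 0.37 SE, edgeR adjusted p = 0.00697). A DUF642 gene (BdiBd21-3.5G0284900), of a family found in plant cell walls, had 33.3, 23.4 and 23.2 CPM at week 2 and 6.5, 7.73 and 6.95 CPM at week 4, a log2 fold change of -1.92 (± 0.18 SE, edgeR adjusted p = 0.00513). Its week 4 values were nearly equal and far under week 2. A short-chain dehydrogenase/reductase (BdiBd21-3.1G0758300) had 68.9, 97.6 and 64.8 CPM at week 2 and 13.6, 22.1 and 26.8 CPM at week 4, a log2 fold change of -1.89 (± 0.27 SE, edgeR adjusted p = 0.00727). The salt stress-induced protein (BdiBd21-3.1G0638300) had 253, 174 and 162 CPM at week 2 and 52.8, 63.3 and 73.7 CPM at week 4, a log2 fold change of -1.64 (± 0.20 SE, edgeR adjusted p = 0.00572). Both were lower in every week 4 root.

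A beta-L-arabinofuranosidase of family GH127 (BdiBd21-3.1G0487400), which in bacteria frees arabinose from sugar chains, had 38.1, 26.8 and 22.5 CPM at week 2 and 9.3, 8.7 and 12.6 CPM at week 4, a log2 fold change of -1.51 (± 0.23 SE, edgeR adjusted p = 0.00681). A probable tyrosine-protein phosphatase (BdiBd21-3.1G0606000) had 58.3, 48 and 32.8 CPM at week 2 and 13.3, 16.7 and 21.7 CPM at week 4, a log2 fold change of -1.43 (± 0.25 SE, edgeR adjusted p = 0.00992). The genes BdiBd21-3.3G0143000 and BdiBd21-3.2G0304000 have no description and fell by log2 fold changes of -1.64 (± 0.25 SE, edgeR adjusted p = 0.00697) and -1.55 (± 0.19 SE, edgeR adjusted p = 0.00572). None of the 16 genes overlapped between the weeks, which the rule required. For 9 of them the change differed from that in shoots by the interaction of tissue and week in the model of all 12 libraries, which called 8.52% of the genes it tested. The 16 were chosen for large changes in roots, so the shares cannot be compared. A missing call does not show a like change in shoots, where some of these genes had almost no counts. BdiBd21-3.3G0360700 had 0 in both weeks, and the salt stress-induced gene had 4 at week 2 and 0 at week 4. In shoots, 33.9% of genes were called between the weeks in that model.

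**Figure D5:**
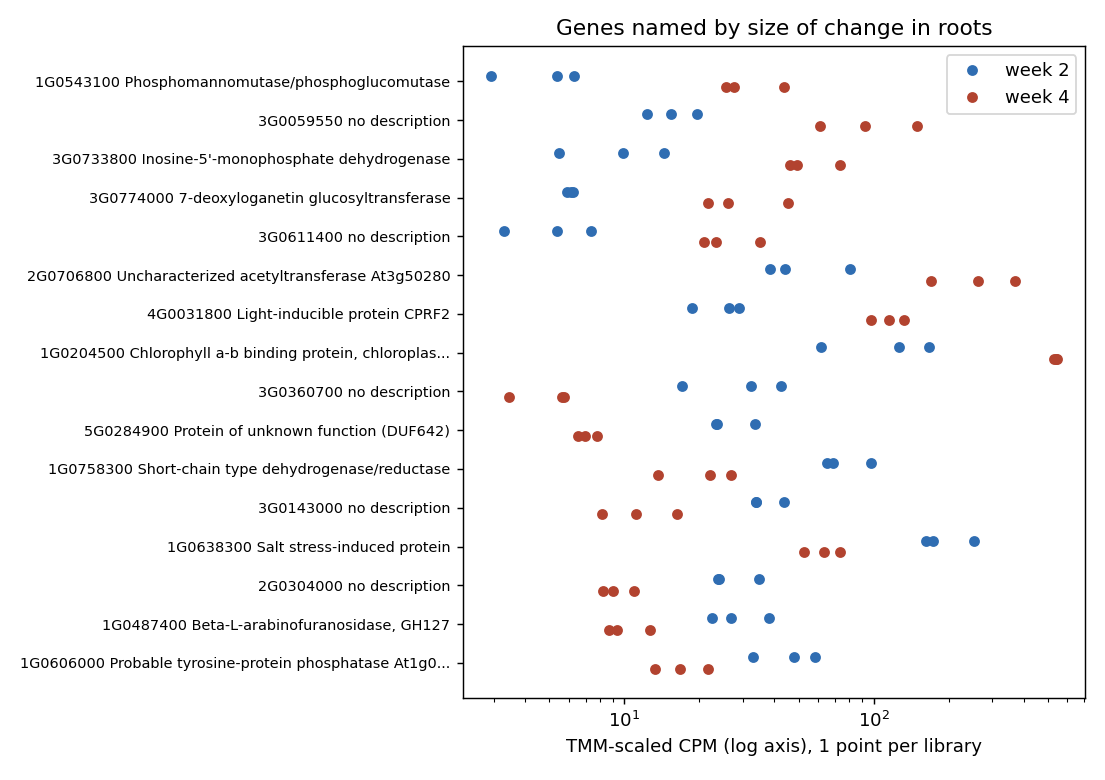
TMM-scaled CPM, on a log axis, of the 16 stable genes with the largest changes in roots among those of average log2 CPM 4 or more, with 1 point per library (blue week 2, red week 4) and identifiers without their line prefix. No gene overlaps between the weeks, and the phosphomannomutase/phosphoglucomutase gene moves from 2.92 to 6.27 CPM at week 2 to 25.5 to 43.7 CPM at week 4.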

How the data were processed

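Poly-A RNA of whole roots was sequenced, per the labels' protocols; directional and non-directional preparations are both named there, and neither the strand setting nor the handling of shared reads is given in the sources used here. The submitters' processing notes name HISAT2 2.0.5, featureCounts 1.5.0-p3 and HTSeq 0.6.1. The authors deposited 1 table of unscaled read counts per gene with positions, lengths and descriptions; its genome build is not named, and 0 of its identifiers matched the RefSeq table of line Bd21. Columns were matched to samples by title, and 0 per-sample columns were left unused.

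From the counts, edgeR 4.0.16 (R 4.3.3) fitted the 6 root libraries: filterByExpr (minimum count 10, minimum total 15), TMM scaling, robust quasi-likelihood F tests in either direction, prior count 0.125, Benjamini-Hochberg adjustment over 24405 genes, threshold 0.05. The SE follows from the log2 fold change and its F statistic, as their quotient with the root of F. On counts simulated from the fitted model itself, the steps returned the fold changes put in. This checks the steps alone, and cannot show how well the model suits these data. The p-values weigh a change against the spread between the 3 libraries of each week, which came from different plants grown alike. Total counts of 17261299 to 23676944 per root library limit the precision of genes with few counts.

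Alternatives were RLE and upper-quartile scaling, dropping the 50 genes with most counts, no filter at all, CPM 1 in 3 libraries as the filter, DESeq2 1.42.0, limma-voom (limma 3.58.1), a model of all 12 libraries with and without TMM within tissue, a replicate block, a threshold of 0.01, edgeR's glmTreat at a fold of 2, and each library left out. A stable gene was called with the same sign in 14 of these fits (all but the unfiltered, block, 0.01 and fold-of-2 ones) without overlap of CPM; the 50 most counted genes needed no call where left out.

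Named genes are the 8 highest and 8 lowest stable genes whose mean log2 CPM reached 4, and, in each of 39 keyword lists and each direction, the stable member with the most CPM, or else the most counted called member. A further 27 genes and some other list members were picked after their values were seen, as was the exclusion of a folylpolyglutamate synthase from the nitrogen list. The members and lists were chosen with earlier results of these data known.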

Additional observations from a re-analysis of the deposited data

Results flagged for a closer look

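For 9 of the 16 genes with the largest changes among stable genes whose log2 CPM averaged 4 or more, the change in roots differed from that in shoots by the interaction term of a model of all 12 libraries (edgeR, adjusted p under 0.05; 8.52% of 26463 genes tested were called). The genes were chosen for their change in roots, so that side of the difference is a description. Where no difference was called, the changes need not be alike, as some of these genes had almost no counts in shoots. Leaving out 1 library gave 5 to 8 such genes among the 16. Each difference below is the log2 change in roots less the log2 change in shoots.

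The phosphomannomutase/phosphoglucomutase gene (BdiBd21-3.1G0543100) had a difference of 2.67 (SE 0.36, adjusted p = 0.00211, edgeR). In shoots it stood at 294 ± 23.2 CPM (SD, n = 3) at week 2 and 314 ± 40.7 CPM at week 4. The chlorophyll a-b binding gene (BdiBd21-3.1G0204500) had a difference of 2.37 (SE 0.42, adjusted p = 0.00700, edgeR), with no call in shoots. Inosine-5'-monophosphate dehydrogenase (BdiBd21-3.3G0733800) differed by 1.60 and was called higher in shoots too, by 0.94 on the log2 scale (adjusted p = 0.0344, edgeR). Its shoot means were 182 CPM at week 2 and 348 CPM at week 4. The acetyltransferase (BdiBd21-3.2G0706800) differed by 2.56, and the undescribed BdiBd21-3.3G0059550 by 2.08 (adjusted p = 0.0453 and 0.0109, edgeR). In shoots at week 2 and week 4 the former averaged 16.9 and 14.5 CPM, and the latter 316 and 491 CPM. The undescribed BdiBd21-3.3G0611400 differed by 4.01, with 43 counts in all week 2 shoots and 13 in all week 4 shoots.

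Among genes that fell in roots, the short-chain dehydrogenase/reductase (BdiBd21-3.1G0758300) had a difference of -2.71, with 20 and 36 counts in all shoots of week 2 and week 4. The undescribed BdiBd21-3.2G0304000 differed by -1.60 and the tyrosine-protein phosphatase gene (BdiBd21-3.1G0606000) by -1.53, and neither was called in shoots.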

How the results depend on the processing

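Over all genes, the higher and lower calls stayed within 1.5 times of 2702 and 2907 under RLE and upper-quartile scaling, without the 50 most counted genes, under both other low-count filters, with DESeq2 and with limma-voom. The model of all 12 libraries called 1680 lower. An adjusted p under 0.01 left 669 higher and 871 lower. Against a fold change of 2 (edgeR's glmTreat), 0 higher and 0 lower genes were called, with 945 at an unadjusted p under 0.05. Fits without 1 library gave 988 to 2777 higher and 1125 to 3416 lower calls, and 5 to 8 of those 16 genes with a difference from shoots. Causes were not tested.

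Deviations from the group mean correlated at -0.03, 0.08 and -0.13 between same-numbered libraries of the weeks. Differently numbered libraries gave -0.146 to 0.148. With 3 libraries per week, these values cannot decide whether libraries of equal number were linked. A fit with the replicate number as a block called 1619 higher and 1838 lower genes, and 77 of the 79 stable named genes.

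Genes with few counts, shared reads between copies and 3 libraries per group limit the single-gene values.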

Other observations

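Further gene families were singled out after their values were seen, so their counts are descriptions. B-box zinc finger genes, many of which act in light signalling, had 7 of 13 tested members higher at week 4 and 0 lower by edgeR (1 at an unadjusted p under 0.05, 1 by DESeq2 and 0 by limma-voom), against 11.1% higher over all genes. Fits without 1 library called 3 to 6 of the 13 higher. Genes with a CCT motif, found in CONSTANS-like and clock proteins, had 12 of 31 higher and 0 lower by edgeR (1 at an unadjusted p under 0.05, 1 by DESeq2 and 0 by limma-voom). Those fits called 7 to 12 of the CCT genes higher. CONSTANS-like 16 (BdiBd21-3.1G0151100) had 12.2, 16.2 and 20.2 CPM at week 2 and 71.8, 57.7 and 66.4 CPM at week 4. B-box protein 24 (BdiBd21-3.5G0182700) had 8.96, 7.12 and 7.83 CPM at week 2 and 43.5, 28.9 and 25.6 CPM at week 4. The log2 fold changes were 2.01 (± 0.18 SE, edgeR adjusted p = 0.00513) and 2.04 (± 0.22 SE, edgeR adjusted p = 0.00525). Response regulator-like PRR95 (BdiBd21-3.4G0502400), named for a rice clock gene, had 38.9, 28.4 and 28.3 CPM at week 2 and 138, 122 and 82.2 CPM at week 4, and REVEILLE 6 (BdiBd21-3.3G0685600), named for a clock-related MYB gene of Arabidopsis, had 7.05, 7.21 and 7.37 CPM at week 2 and 46, 26.9 and 25.9 CPM at week 4. They rose by 1.84 (± 0.22 SE, edgeR adjusted p = 0.00572) and 2.19 (± 0.23 SE, edgeR adjusted p = 0.00538) on the log2 scale. None of these 4 genes overlapped between the weeks. All 4 had higher levels in shoots. There CONSTANS-like 16 averaged 648 and 1236 CPM at week 2 and week 4, and B-box protein 24 averaged 180 and 429 CPM. PRR95 averaged 209 and 382 CPM, and REVEILLE 6 averaged 70.6 and 166 CPM. The hour of harvest is not given in the labels for either week.

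Other families had more lower than higher calls. Genes with a WRC domain, found in growth-regulating factors, had 7 of 15 lower and 0 higher by edgeR (1 at an unadjusted p under 0.05, 0 by DESeq2 and 0 by limma-voom), 3 of them lower in the model of all 12 libraries. Mitochondrial ribosomal proteins had 13 of 19 lower and a median log2 fold change of -0.62, and LSM domain genes of the splicing machinery had 11 of 23 lower and 1 higher. Proteasome core subunits had 8 of 20 lower and 1 higher, a count that fell to 0 lower in 1 of the fits without a library. Exostosin family glycosyltransferases, a family with wall-building members, had 11 of 31 lower. Lower calls in the fits without 1 library came down to as few as 2 of the WRC, 6 of the mitochondrial ribosomal, 5 of the LSM and 2 of the exostosin genes, and the model of all 12 libraries called 11 mitochondrial ribosomal, 8 LSM and 5 exostosin genes lower.

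Some single genes were also picked after their values were seen. The root-specific lectin (BdiBd21-3.4G0134300) had 16.4, 12.7 and 16.4 CPM at week 2 and 3.27, 3.91 and 6.99 CPM at week 4, a log2 fold change of -1.68 (± 0.28 SE, edgeR adjusted p = 0.00806). Expansin-A7 (BdiBd21-3.1G0047800), named for an expansin of Arabidopsis root hairs, had 5.74, 5.56 and 4.64 CPM at week 2 and 1.08, 2.02 and 1.99 CPM at week 4, a log2 fold change of -1.64 (± 0.29 SE, edgeR adjusted p = 0.00832) whose call was lost in the fits of all 12 libraries. CASP-like 1D1 (BdiBd21-3.1G0386200) had 9.82, 23.4 and 40.1 CPM at week 2 and 77.9, 89 and 89 CPM at week 4, a log2 fold change of 1.81 (± 0.48 SE, edgeR adjusted p = 0.0485), and its call was lost in 4 of the 6 fits without 1 library.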
